A study of Mus musculus with 7 samples.

Results

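Purkinje cells, the output neurons of the cerebellar cortex, do not form a uniform sheet. They are arranged in parasagittal stripes that differ in gene expression and are named for zebrin II, an antigen that proved to be the glycolytic enzyme aldolase C, encoded by *Aldoc*. Zebrin-positive and zebrin-negative cells also use different isoforms of phospholipase C beta, the enzyme that couples glutamate receptors on the cell surface to calcium release, and they differ in glutamate uptake. Several mouse mutants with Purkinje cell degeneration lose cells in patterns that follow the stripes.

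The genes examined were 7 stripe genes chosen by name, of 55401 genes counted. Of these, 5 belong to zebrin-positive cells: *Aldoc*, *Slc1a6*, *Plcb3*, *Prkcd* and *Mpped2*. The other 2, *Plcb4* and *Ebf2*, belong to zebrin-negative cells. All 7 passed the filter on low counts, which left 17621 genes to test.

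Ribosome-bound RNA was compared between 4 *nm3888*-/- mice and 3 wild-type mice, with 1 mouse per library. All of the mice were 3 weeks old and carried *Rpl22* fl/+ and the *PCP2-Cre* transgene, so that Purkinje cells, in which the *Pcp2* promoter drives Cre, carried ribosomes with a hemagglutinin (HA) tag on RPL22. Tagged ribosomes were precipitated from whole cerebellum (RiboTag), and the precipitate is enriched for Purkinje cell RNA without being free of RNA from other cells. The *nm3888* allele is a spontaneous retrotransposon insertion in an intron of *Rreb1*, which encodes a zinc finger transcription factor, and it disrupts the transcript variant V7. The allele arose on another strain and was moved to C57BL/6J by backcrossing, so genes linked to it can differ between the genotypes as well.

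By their names the libraries fall into 2 series. The first holds *nm3888*-/- mice 1 and 2 and wild-type mice 1 and 2, all female. The second holds *nm3888*-/- mice 3 and 4, which were male, and wild-type mouse 3, which was female. Within the second series, genotype and sex therefore cannot be told apart. Total counts ranged from 18023017 to 56809597 in *nm3888*-/- libraries and from 25843485 to 107937386 in wild-type libraries, and mitochondrial counts were 0 in every library of the second series and 0.0747 to 0.132% in the first. *Rreb1* itself had 20.2, 19.1, 23.7 and 10.8 CPM (counts scaled to library size with TMM normalization) in *nm3888*-/- libraries, against 17.7, 17.4 and 14.4 CPM in wild-type libraries, and the groups overlapped. The count pools all transcripts of the gene. The study describes V7 as the main *Rreb1* transcript of the cerebellum and as lost in the mutant. It reports this from Northern blots and RT-PCR, and its in situ probe for all transcripts found no *Rreb1* in mutant brain. The other long variants that it detected were at levels similar to wild type in mutant cerebellum. The mean total was 18.5 CPM in *nm3888*-/- and 16.5 CPM in wild-type libraries, and of the mutants only mouse 4 lay below every wild-type library. At the level of the whole gene these totals do not show that loss, and so do not bear out the labels. V7 alone was not measured by counts per gene. The genotypes given here, and every direction drawn between them, are those of the libraries as labelled. All 10 genes of the Purkinje marker list (among them *Calb1*, *Pcp2* and *Car8*) were detected in every library. Their summed level was 32735 to 48636 CPM in *nm3888*-/- and 35658 to 42247 CPM in wild-type libraries. None differed between the genotypes at an adjusted or unadjusted p under 0.05 (edgeR), against 8.54% and 23.6% of all tested genes.

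None of the 7 stripe genes passed the threshold between the genotypes (edgeR's quasi-likelihood test with library series as a term, adjusted p under 0.05 by Benjamini-Hochberg over all tested genes, here termed called). Across all genes 8.54% were called, 2.58% higher and 5.95% lower in *nm3888*-/-. At an unadjusted p under 0.05 the count was 3 of 7 (*Slc1a6*, *Plcb3* and *Prkcd*), against 23.6% of all tested genes. DESeq2 also called 0 of 7. The 5 zebrin-positive genes did not share a direction: 3 had positive and 2 had negative log2 fold changes. Both zebrin-negative genes had negative log2 fold changes with intervals that spanned 0. The study places 3 weeks of age before Purkinje cells begin to degenerate. From these bulk samples alone, fewer cells of a subtype and less RNA per cell cannot be told apart.

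**Figure D1:**
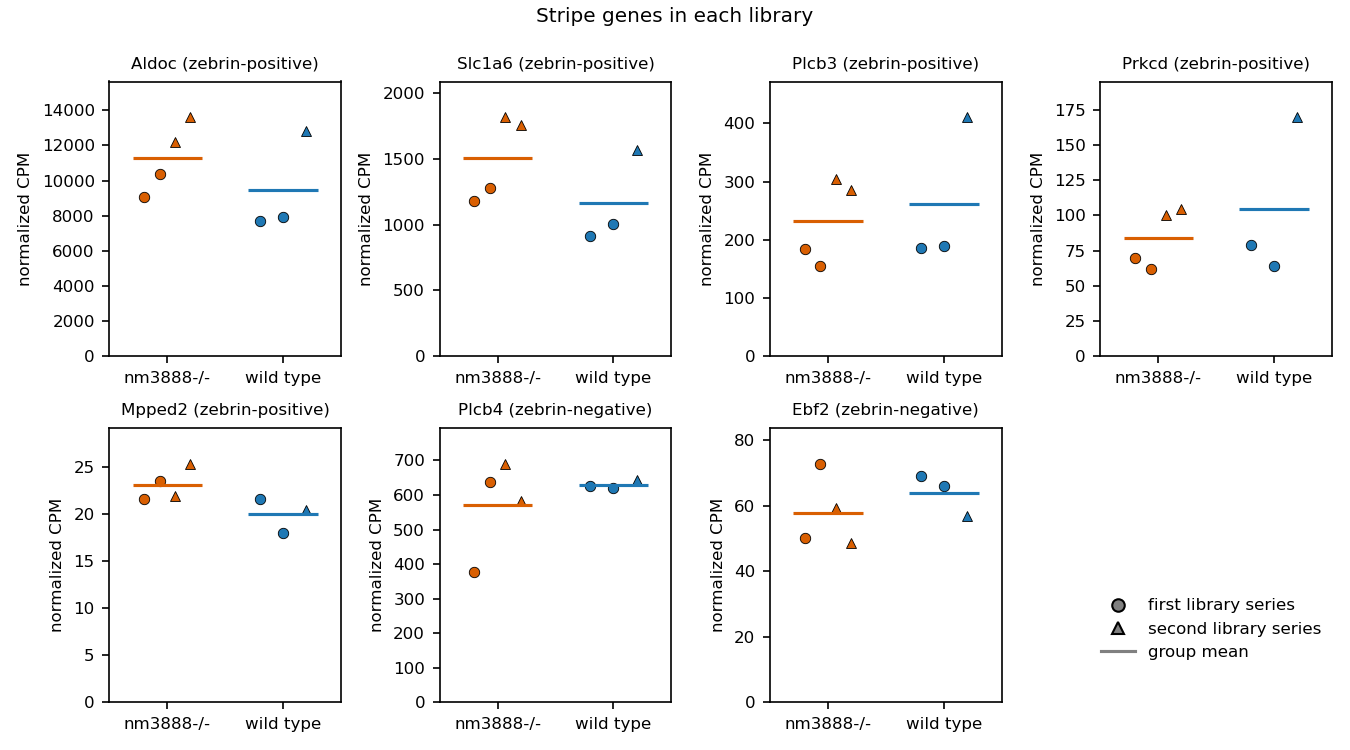
Normalized CPM (linear axis from 0) of the 7 stripe genes in each library, *nm3888*-/- left of wild type. Circles are libraries of the first series, triangles those of the second, and lines are group means. Wild-type mouse 3, the only wild-type library of the second series, had 411 CPM of *Plcb3* and 170 CPM of *Prkcd*, above every other library, and *nm3888*-/- mouse 1 had the lowest *Plcb4*, 376 CPM.

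*Aldoc* (chromosome 11 of mm10, 78322968 to 78327781, plus strand) is the stripe marker itself and the most abundant of the 7 genes. It had 9089, 10370, 12174 and 13608 CPM in *nm3888*-/- libraries, against 7712, 7902 and 12849 CPM in wild-type libraries. Within the first series both *nm3888*-/- libraries lay above both wild-type libraries, and in the second series the wild-type library lay between the 2 *nm3888*-/- libraries. With series as a term, the log2 fold change was 0.19 (SE 0.11, 95% interval −0.055 to 0.44, edgeR adjusted p = 0.329). It was 0.31 within the first series and 0.0025 within the second.

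Astrocytes and Bergmann glia also express *Aldoc*. Of the 10 marker genes listed for these cells, *Gfap* was higher in *nm3888*-/- (log2 fold change 1.04) and *Hopx* was lower (−0.82). The other 8 were not called, with log2 fold changes of 0.36 to 0.88, where 8.54% of all tested genes were called. The summed level of the 10 was 402 to 629 CPM in *nm3888*-/- and 445 to 521 CPM in wild-type libraries. By series, the *nm3888*-/- mean was 512 CPM against 483 CPM in the first and 603 against 477 CPM in the second. None had a count of 0 in any library, and their part in the *Aldoc* values was not tested.

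*Slc1a6* (chromosome 10, 78780496 to 78814765, plus strand) encodes EAAT4, the glutamate transporter of Purkinje cell dendritic spines, which is more abundant in zebrin-positive cells. It had 1176, 1279, 1816 and 1755 CPM in *nm3888*-/- libraries, against 916, 1002 and 1564 CPM in wild-type libraries. Each *nm3888*-/- library lay above each wild-type library of its own series, though the groups overlapped across series. The log2 fold change of 0.29 (SE 0.091, 95% interval 0.082 to 0.50) had the smallest p of the 7 genes. Over all tested genes it missed the threshold (unadjusted p = 0.0119, adjusted p = 0.0919, edgeR quasi-likelihood test). On a linear scale the interval ran from 1.06-fold to 1.41-fold.

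*Plcb3* (chromosome 19, 6952325 to 6976470, minus strand) encodes the phospholipase C isoform of zebrin-positive cells. Its values pointed the other way. It had 183, 155, 305 and 285 CPM in *nm3888*-/- libraries, against 185, 188 and 411 CPM in wild-type libraries. All *nm3888*-/- libraries lay below the wild-type libraries of the same series. The log2 fold change was −0.28 (SE 0.11, 95% interval −0.52 to −0.037, edgeR adjusted p = 0.154), with −0.15 in the first series and −0.48 in the second.

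*Prkcd* (chromosome 14, 30595354 to 30626210, minus strand) encodes protein kinase C delta, a diacylglycerol-dependent kinase found in a subset of Purkinje cells. It had 69.7, 62.1, 101 and 104 CPM in *nm3888*-/- libraries, against 79.1, 64.0 and 170 CPM in wild-type libraries. The *nm3888*-/- libraries overlapped the wild-type libraries in the first series and lay well below wild-type mouse 3 in the second. *Prkcd* had a log2 fold change of −0.37 (SE 0.14, 95% interval −0.70 to −0.048, edgeR adjusted p = 0.154). Within the first series it was −0.11 and within the second −0.73, where male *nm3888*-/- mice were set against a single female wild-type mouse. Genotype and sex cannot be told apart there. A fit to the second series alone was the only setting in which a stripe gene was called.

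*Mpped2* (chromosome 2, 106693269 to 106868356, plus strand) encodes a metallophosphoesterase. It was the least abundant of the 7 genes per kilobase, with 21.6, 23.5, 21.8 and 25.3 CPM in *nm3888*-/- libraries, against 21.6, 18.0 and 20.4 CPM in wild-type libraries. The groups did not overlap, but only by the margin between 21.587 CPM in *nm3888*-/- mouse 1 and 21.575 CPM in wild-type mouse 1. Among all tested genes 14.1% showed no overlap. Its log2 fold change was 0.20 (SE 0.11, 95% interval −0.060 to 0.45, edgeR adjusted p = 0.336).

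*Plcb4* (chromosome 2, 135659011 to 136014593, plus strand) encodes the phospholipase C isoform of zebrin-negative cells. It had 376, 639, 690 and 583 CPM in *nm3888*-/- libraries, against 626, 619 and 643 CPM in wild-type libraries. The wild-type libraries were tightly grouped across both series, and the *nm3888*-/- libraries were scattered around them with mouse 1 far below. The log2 fold change was −0.18 (SE 0.18, 95% interval −0.58 to 0.22, edgeR adjusted p = 0.577). Without *nm3888*-/- mouse 1 it was 0.012, so the negative value rested on that library.

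*Ebf2* (chromosome 14, 67233292 to 67430918, plus strand) encodes a transcription factor that in mice restrains the zebrin-positive phenotype in zebrin-negative cells. It had 50.1, 72.8, 59.4 and 48.8 CPM in *nm3888*-/- libraries, against 69.0, 66.1 and 56.8 CPM in wild-type libraries. The groups overlapped. *nm3888*-/- mice 1 and 4 were the lowest of the 7 libraries, and *nm3888*-/- mouse 2 was the highest. Its log2 fold change was −0.11 (SE 0.14, 95% interval −0.42 to 0.21, edgeR adjusted p = 0.685), and it was 0.019 without *nm3888*-/- mouse 1.

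Short stretches near the start sites are shown because *Ebf2* is both one of the stripe genes and the factor whose family binds a defined palindrome. RefSeq promoter windows (GRCm38.p6, 250 bases before to 50 after each start) were found for 6 of the 7 genes. *Ebf2* had none, so *Plcb4* was the only zebrin-negative gene searched, and the subtypes cannot be compared. CCCNNGGG, the core bound by EBF proteins, read on both strands, occurred in a window of 4 of these 6 genes. The core is in capitals, with 30 bases shown on the strand of the gene.
*Aldoc*, chr11:78323078-78323107 (+), core starting 16 bases after the start: atctgtcacgcCCCCAGGGagtcacgtagc
*Slc1a6*, chr10:78780407-78780436 (+), core starting 78 bases before the start: agggggacatcCCCGAGGGggtcccgcccc
*Prkcd*, chr14:30626266-30626295 (−), core starting 76 bases before the start: aggggcgggcgCCCGTGGGgcgggtcctga
*Mpped2*, chr2:106692976-106693005 (+), core starting 194 bases before the start: gtgtggagggaCCCTGGGGtcgcccctctt
The windows of *Plcb3* and *Plcb4* did not hold these letters. The core occurred in 13.7% of all 32851 windows and for 15.4% of 27025 genes. It was 1 of 6 motifs searched, chosen after the values were known, and a match is a description of the letters, not a binding site. Among the other 5, the E-box CANNTG (which includes CAGATG) was present in a window of all 6 genes and of 75% of all genes, CAGATG for *Mpped2* alone (19.2% of genes), AGGTCA for *Plcb3* alone (18.1%), CCCCACC for *Mpped2* and *Plcb4* (17.5%), and TGACGTCA for none (2.03%).

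The order of abundance was the same in both genotypes when levels were compared per kilobase of exon. In *nm3888*-/- libraries *Aldoc* had 3466 ± 609 CPM per kilobase, followed by *Slc1a6* with 700 ± 151, *Plcb4* with 63.8 ± 15.3, *Plcb3* with 33.3 ± 10.6, *Prkcd* with 15.2 ± 3.87, *Ebf2* with 8.34 ± 1.60 and *Mpped2* with 6.73 ± 0.50 (mean ± SD, n = 4). The same genes had 2908 ± 893, 539 ± 164, 70.1 ± 1.35, 37.6 ± 18.6, 18.8 ± 10.3, 9.23 ± 0.92 and 5.84 ± 0.53 CPM per kilobase in wild-type libraries (mean ± SD, n = 3). Neighbours whose ranges of 1 SD overlapped were *Plcb3* with *Prkcd* and *Prkcd* with *Ebf2* in wild type, and *Ebf2* with *Mpped2* in *nm3888*-/-. The SDs include the difference between the series.

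**Figure D2:**
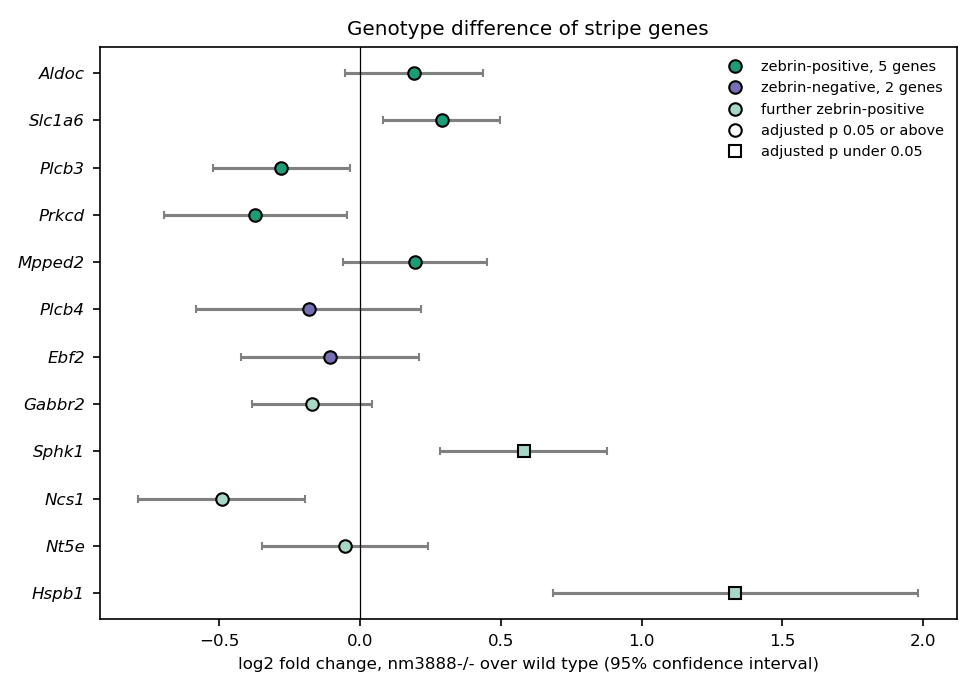
Log2 fold change of *nm3888*-/- over wild type with its 95% confidence interval for the 7 stripe genes (dark) and 5 further zebrin-positive genes (light), from the fit with library series as a term. Squares mark the 2 genes with an adjusted p under 0.05, *Sphk1* (0.58) and *Hspb1* (1.33), and all 7 dark points lie between −0.37 and 0.29.

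The difference between the library series was larger than the difference between genotypes for 4 of the 5 zebrin-positive genes. In *nm3888*-/- mice the second series exceeded the first by 0.41 for *Aldoc*, 0.54 for *Slc1a6*, 0.81 for *Plcb3* and 0.64 for *Prkcd* on the log2 scale. In wild-type mice these differences were 0.72, 0.71, 1.14 and 1.26, or 1.65-fold, 1.63-fold, 2.20-fold and 2.39-fold. *Mpped2* did not take part in this, with 0.062 in *nm3888*-/- and 0.051 in wild-type mice. *Plcb4* differed by 0.37 in *nm3888*-/- and 0.046 in wild-type mice, and *Ebf2* by −0.17 and −0.25. Such differences were common, since the second series exceeded the first by more than 0.4 for 28.9% of all tested genes in *nm3888*-/- and by more than 0.7 for 14.7% in wild type. Depth, the alignment named in the file headers and, for the mutants, sex differ between the series, and their parts cannot be told apart. A test of genotype by series interaction called none of the 7 genes (adjusted p from 0.789 for *Prkcd* to 1.00, edgeR) and 14 of the 17621 genes tested. At an unadjusted p under 0.05 edgeR's interaction test found 1017 genes, with *Prkcd* alone among the stripe genes.

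The subtype balance was described for each library as the mean log2 CPM of the 5 zebrin-positive genes minus that of the 2 zebrin-negative genes. It was 1.18, 0.54, 1.09 and 1.41 in *nm3888*-/- libraries, against 0.51, 0.47 and 1.36 in wild-type libraries. The groups overlapped, and in each genotype a library of the second series was highest. The means were 1.05 ± 0.37 in *nm3888*-/- (SD, n = 4) and 0.78 ± 0.51 in wild type (SD, n = 3). Within the first series the balance was 0.37 higher in *nm3888*-/-, and within the second it was −0.11, so the sign differed between the series. With series as a term the difference was 0.18. The residual SD of single libraries was 0.30, which is not the error of that difference, and the difference was not tested.

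The 2 sides of the balance behaved differently. The zebrin-positive mean differed by 0.0072 between the genotypes with series as a term, as *Aldoc*, *Slc1a6* and *Mpped2* on one hand and *Plcb3* and *Prkcd* on the other cancelled. The zebrin-negative mean differed by −0.17, and its lowest value, 7.10 in *nm3888*-/- mouse 1, set the high balance of that library. Without that mouse the balance difference was −0.033. The ratio of *Aldoc* to *Plcb4* CPM, the 2 best known stripe genes, was 24.1, 16.2, 17.6 and 23.3 in *nm3888*-/- libraries, against 12.3, 12.8 and 20.0 in wild-type libraries. The ratio of *Plcb3* to *Plcb4*, which compares the isoforms of the same enzyme, was 0.487, 0.243, 0.442 and 0.489 in *nm3888*-/- libraries, against 0.296, 0.304 and 0.639 in wild-type libraries. In the second series wild-type mouse 3 lay between the mutants for the first ratio and above both for the second.

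**Figure D3:**
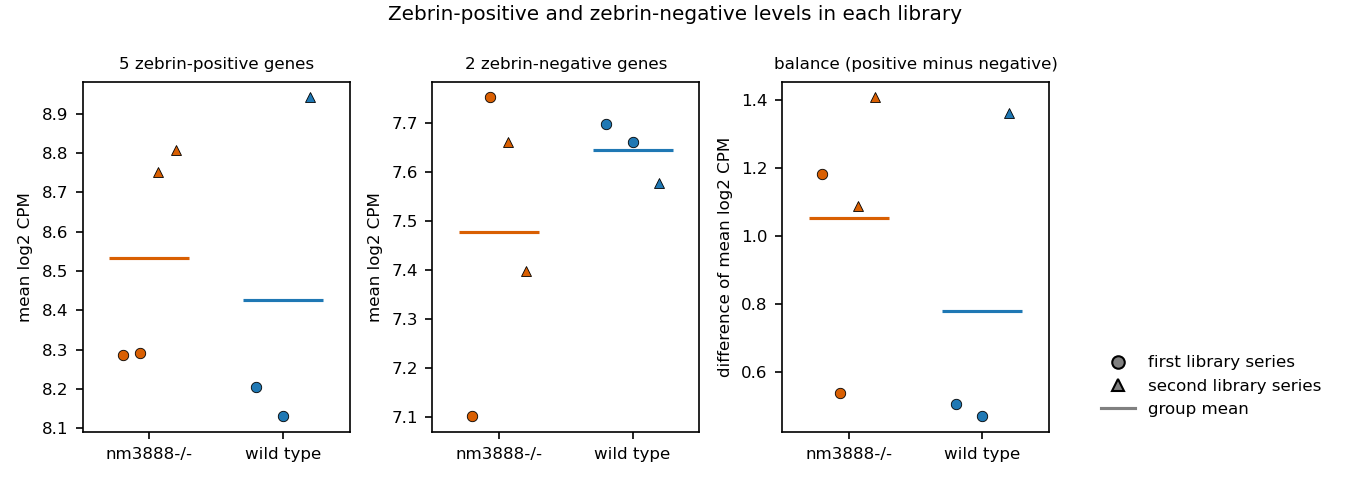
Mean log2 CPM of the 5 zebrin-positive genes, of the 2 zebrin-negative genes and their difference in each library (axes do not start at 0), *nm3888*-/- left of wild type. Circles are the first series, triangles the second, and lines group means. The balance runs from 0.54 to 1.41 in *nm3888*-/- and from 0.47 to 1.36 in wild type, and the zebrin-positive mean separates the series rather than the genotypes.

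Across the 7 libraries, with each gene centred within its series, the stripe genes fell into pairs. Pearson's r was 0.96 for *Plcb4* with *Ebf2*, 0.88 for *Plcb3* with *Prkcd* and 0.82 for *Aldoc* with *Slc1a6*. In the first series *nm3888*-/- mouse 1 was the lowest library for both *Plcb4* (376 CPM) and *Ebf2* (50.1 CPM). The value of that pair leans on this library. In the second series wild-type mouse 3 was the highest library for both *Plcb3* (411 CPM) and *Prkcd* (170 CPM), and the value of that pair leans on it. Neither r was computed without these libraries. *Plcb3* had negative values with *Mpped2* (−0.74), *Slc1a6* (−0.67) and *Aldoc* (−0.47), and *Prkcd* with *Slc1a6* (−0.61), *Mpped2* (−0.36) and *Aldoc* (−0.23). The zebrin-negative pair was close to 0 with *Plcb3* and *Prkcd* (−0.08 to 0.04) and weakly negative with *Aldoc*, *Slc1a6* and *Mpped2* (−0.27 to −0.14). All the genes were read from the same 7 libraries, so differences between libraries in depth and genotype enter every one of these values.

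**Figure D4:**
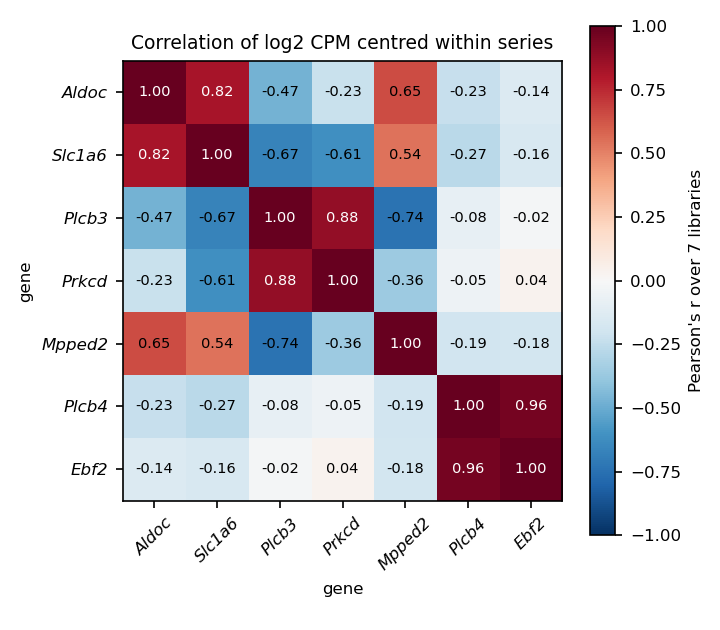
Pearson's r between the stripe genes over the 7 libraries (log2 CPM centred within series), coloured from −1 (blue) to 1 (red). *Aldoc*, *Slc1a6* and *Mpped2* form a block with r of 0.54 to 0.82, *Plcb3* with *Prkcd* has 0.88, and *Plcb4* with *Ebf2* has 0.96.

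By the same measure the genes most like *Aldoc*, among 9925 with a mean log2 CPM over 3, were *Ppa2* (0.99), *Snx8* (0.98) and *Sar1a* (0.97), and 94 genes had an r over 0.9. The genes most like *Plcb4* were *2610021A01Rik*, *Naa15* and *Clvs1* (all 1.00 when rounded), and 318 genes had an r over 0.9.

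Further stripe genes were read from a list of 5 zebrin-positive genes, written with earlier results of these data known. Of the 5, 2 were higher and 0 lower in *nm3888*-/-, beside 2.58% higher and 5.95% lower among all tested genes. Their median log2 fold change was −0.055, against 0.027 over all tested genes.

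*Sphk1*, which encodes a sphingosine kinase, had 41.9, 38.1, 28.8 and 32.5 CPM in *nm3888*-/- libraries, against 21.4, 25.6 and 24.5 CPM in wild-type libraries. All *nm3888*-/- libraries lay above all wild-type libraries, where 14.1% of all tested genes showed no overlap in either direction. The gene was 1.50-fold higher in *nm3888*-/- (log2 fold change 0.58, SE 0.13, edgeR adjusted p = 0.0280). The call was lost without wild-type mouse 1 (adjusted p = 0.0962), wild-type mouse 2 (0.103) or *nm3888*-/- mouse 1 (0.0700), 2 (0.0876) or 4 (0.0561), and with the replicate number as a block (0.103), while the log2 fold change stayed between 0.49 and 0.77 when single libraries were left out.

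*Hspb1* encodes the small heat shock protein HSP25, which marks a subset of zebrin-positive Purkinje cells in the central and nodular zones of the mouse cerebellum. It had 15.4, 9.36, 14.7 and 27.5 CPM in *nm3888*-/- libraries, against 6.40, 3.92 and 7.76 CPM in wild-type libraries. Again the groups did not overlap, as for 14.1% of all tested genes. *Hspb1* was 2.52-fold higher in *nm3888*-/- (log2 fold change 1.33, SE 0.29, edgeR adjusted p = 0.0229). It was not called without wild-type mouse 2 (adjusted p = 0.0795), wild-type mouse 3 (0.143) or *nm3888*-/- mouse 1 (0.0774).

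The other 3 zebrin-positive genes of the list had negative log2 fold changes and were not called. *Ncs1*, a neuronal calcium sensor, had 84.8, 63.1, 62.6 and 61.5 CPM in *nm3888*-/- libraries, against 98.7, 88.0 and 102 CPM in wild-type libraries. The groups did not overlap, which held for 14.1% of all tested genes. The log2 fold change of −0.49 (SE 0.13) lay just short of the threshold (edgeR adjusted p = 0.0524). *Gabbr2*, a subunit of the GABA-B receptor, had a log2 fold change of −0.17 (edgeR adjusted p = 0.316), and *Nt5e*, which encodes 5′-nucleotidase, had −0.055 (adjusted p = 0.839).

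Relatives of the stripe genes were read in the same way. The list held the aldolases, the SLC1 transporters, the phospholipase C beta and protein kinase C isoforms, *Mpped1* and the other EBF factors. Of 22 genes 19 were tested, 1 was higher, 1 was lower and 17 were not called, a share close to the 8.54% called among all tested genes, and the 19 had a median of 0.23 on the log2 scale. *Slc1a4*, a neutral amino acid transporter, had 8.75, 6.71, 10.2 and 8.96 CPM in *nm3888*-/- libraries, against 5.81, 3.96 and 5.16 CPM in wild-type libraries. It was 1.69-fold higher in *nm3888*-/- (log2 fold change 0.76, SE 0.18, edgeR adjusted p = 0.0388), and the call held only with wild-type mouse 1 left out among the 7 single-library removals (adjusted p of the others 0.0521 to 0.236). *Prkcz*, an atypical protein kinase C that does not depend on diacylglycerol, had 144, 131, 201 and 207 CPM in *nm3888*-/- libraries, against 164, 174 and 280 CPM in wild-type libraries. It was lower in *nm3888*-/- (log2 fold change −0.36, SE 0.088, edgeR adjusted p = 0.0383), and the call held only with *nm3888*-/- mouse 1 left out (adjusted p of the other removals 0.0560 to 0.272), and it was lost with the replicate block (adjusted p = 0.155). The log2 fold changes of the 17 uncalled relatives ran from −0.37 to 0.71.

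The pathway in which *Plcb3* and *Plcb4* act runs through Gq proteins and phospholipase C to the inositol trisphosphate receptor and calcium-dependent kinases. Of 11 listed genes 1 was lower in *nm3888*-/-, none was higher and 10 were not called, with log2 fold changes of −0.19 to 0.23 among the uncalled genes and a median of 0.084 over the list. A single call in 11 is close to the 8.54% of all tested genes. The lower gene was *Camk2a*, which encodes the alpha subunit of calcium/calmodulin-dependent protein kinase II. It had 386, 237, 220 and 158 CPM in *nm3888*-/- libraries, against 731, 819 and 711 CPM in wild-type libraries. The groups were far apart, and *Camk2a* fell by 1.56 on the log2 scale (SE 0.20, edgeR adjusted p = 0.00218).

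Markers of other cerebellar cells were mostly not called, but their log2 fold changes were mostly positive. The median log2 fold change was 0.54 for 6 granule cell genes, 0.51 for 6 oligodendrocyte genes, 0.60 for 10 Bergmann glial and astrocytic genes, 0.63 for 4 tested microglial genes, 1.02 for 2 tested unipolar brush cell genes, 0.39 for 5 interneuron genes and 0.20 for 6 endothelial and pericyte genes, against 0.097 for the 10 Purkinje genes. No gene of the granule cell, interneuron, microglial or endothelial lists was called by edgeR. In each of these lists 2 genes had an unadjusted p under 0.05 (edgeR), against 23.6% of all tested genes. Called among the rest, besides *Gfap* and *Hopx*, were *Cnp* of oligodendrocytes (log2 fold change 0.67) and *Calb2* of unipolar brush cells (0.79), both higher in *nm3888*-/-, where 8.54% of all tested genes were called in either direction. Summed levels of the granule cell list were 414 to 799 CPM in *nm3888*-/- and 304 to 383 CPM in wild-type libraries, and those of the oligodendrocyte list were 640 to 1143 CPM in *nm3888*-/- and 453 to 681 CPM in wild-type libraries. The summed unipolar brush cell markers were at 26.6 to 77.4 CPM in *nm3888*-/- and 18.2 to 29.8 CPM in wild-type libraries. The part of these cells in the values of the stripe genes was not tested.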

How the data were processed

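RiboTag RNA-seq libraries of 4 *nm3888*-/- and 3 wild-type cerebella were used, grouped by the genotype label. The authors trimmed and deduplicated reads with fastp, aligned them to mm10 and deposited raw read-pair counts per gene made by featureCounts (2.0.1 in the headers, both ends mapped, reverse-stranded) on GENCODE M25. The methods name Bowtie2, while per the file headers the second series came from a STAR folder. Gene symbols were matched for 55141 of 55401 IDs.

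Counts were filtered with filterByExpr, scaled by TMM and tested with edgeR 4.0.16 (quasi-likelihood, limma 3.58.1, R 4.3.3), with library series as a term and Benjamini-Hochberg adjustment. The methods give batch as a covariate without assigning libraries, so series was taken from library names. CPM are TMM-scaled, log2 CPM carry a prior count of 2, and SE and 95% intervals come from the F statistic. The test was checked on simulated data. DESeq2 1.42.0, other scalings, filters, terms, thinned counts and leaving out libraries were alternatives.

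Named genes were the 7 stripe genes, all further stripe genes, every called gene of the family and pathway lists, and the 3 genes most correlated with *Aldoc* and *Plcb4*. Genes and lists were chosen with earlier results of these data known, and 2 genes of these lists are not reported here. Same-numbered *nm3888*-/- and wild-type libraries deviated together (r = 0.914, 0.946 and 0.960), as did differently numbered libraries of the same series (0.926 to 0.956).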

Additional observations from a re-analysis of the deposited data

How the results depend on the processing

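No stripe gene was called under any of 16 of the 17 alternatives. The exception was the second series alone, where *Prkcd* was called (log2 fold change −0.73), with 1 wild-type library and the spread taken from the 2 mutants. Genotype and sex cannot be told apart in that series. All 7 log2 fold changes kept their sign, except that *Plcb4* and *Ebf2* reversed without *nm3888*-/- mouse 1. Leaving out single libraries gave ranges of −0.37 to 0.012 for *Plcb4* and −0.25 to 0.019 for *Ebf2*. The balance difference ran from −0.11 to 0.39 over 22 alternatives, and from −0.033 to 0.37 when single libraries were left out. It was 0.13 without *Aldoc* and 0.39 from summed CPM. The residual SD of single libraries around the main fit was 0.30. Counts thinned to the shallowest library also called 0 stripe genes.

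The count of all genes called (1504, with 455 higher and 1049 lower) was 309 with no batch term (58 higher, 251 lower), 102 with sex in place of series (17 higher, 85 lower), 679 in the first series alone and 599 to 1425 without single libraries (889, 751 and 599 without wild-type mouse 1, 2 or 3, and 917 without *nm3888*-/- mouse 2). The second series alone called 567 genes higher and 493 lower. Replacing series by the replicate number (replicate block) called 812 genes, 0 of them stripe genes, and lost *Sphk1* (adjusted p = 0.103) and *Prkcz* (adjusted p = 0.155). It changed no call of the 7 stripe genes, *Hspb1*, *Ncs1*, *Slc1a4* or *Camk2a*, and other named genes were not refitted. Of 17 alternatives, *Sphk1* lost its call in 10, *Hspb1* in 6, *Slc1a4* in 11 and *Prkcz* in 14. *Ncs1* was called in 4, among them DESeq2 (adjusted p = 0.0315) and the fit without *nm3888*-/- mouse 1 (0.00893). *Camk2a* lost its call with no batch term (0.0621) and with sex in place of series (0.156). Scaling to Purkinje markers moved the median of all genes to −0.052, against 0.027 with TMM. With that scaling the stripe genes ran from −0.44 (*Prkcd*) to 0.21 (*Slc1a6*), with −0.29 for *Plcb4* and −0.21 for *Ebf2*. None was called, and the balance difference stayed at 0.18. *Sphk1*, *Slc1a4* and *Prkcz* lost their calls there, while *Hspb1* and *Camk2a* kept theirs. The causes were not tested.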
